A study of Homo sapiens with 15 samples.

Results

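The membrane-bound mucins MUC1, MUC3A, MUC4, MUC12, MUC13, MUC15, MUC16, MUC17 and MUC20 were followed through accessible chromatin in and around their 9 genes. ATAC-seq, in which a transposase cuts open chromatin and the cut fragments are sequenced, was run on HPAF-II cells, a human pancreatic adenocarcinoma line known for its dependence on Wnt ligands. Cells received 1 µM Lgk974, an inhibitor of the acyltransferase porcupine that Wnt ligands need for secretion, or the solvent DMSO, and 15 libraries fell into 4 groups: Lgk974 24 h (n = 4), DMSO 24 h (n = 4), Lgk974 48 h (n = 3) and DMSO 48 h (n = 4). Every library is labelled as HPAF-II, although the growth protocol also describes the gastric line KATO III. All groups are 1 cell line at 1 dose, and the labels do not state that replicates came from different cultures. Each p-value therefore reflects library-to-library spread alone, which may be technical.

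Deposited peaks that shared at least 1 bp, in any of the 15 lists, were joined into 222814 regions. Regions inside 1 of the 9 genes or within 50 kb of either end were kept, 157 in all, and each was read as called or not called in each library. The existence of a region therefore rests on the calls themselves, and the 9 genes were chosen by name with earlier results of these libraries known, so how often a region is called is a description. For each gene, the farthest region kept lay from 40326 to 49988 bp away and was called in 1 to 15 libraries, and the nearest region left out lay from 50425 to 62264 bp away and was also called in 1 to 15 libraries. Region names give the nearest gene and a number in order of position on hg38. Of the 157 regions, 50 lay near more than 1 of the genes, since MUC4 and MUC20 are neighbours on chromosome 3 (49 regions, 27 of them near both) and MUC3A, MUC12 and MUC17 form a cluster on chromosome 7 (35 regions, 23 of them shared).

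Membrane-bound mucins span the plasma membrane and carry a long, heavily O-glycosylated repeat domain that stands above the apical surface of epithelia. MUC1, MUC3A, MUC12, MUC13, MUC16 and MUC17 hold a SEA domain near the membrane, in several of them a site of cleavage, whereas MUC4 has EGF-like modules without a SEA domain and is known as a partner of ERBB2, and MUC15 and MUC20 hold neither kind. In pancreatic carcinoma MUC1, MUC4 and MUC16 are known for high expression, and MUC16 binds mesothelin (MSLN). Their repeat domains, and the near-identical gene copies known beside MUC20 and MUC3A, can blur read placement, and how reads with several matches were treated is not given in the sources used here.

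The 250 bases before the annotated starts are shown for MUC4 and MUC17, whose neighbourhoods carry the differences described further on, for MUC1 and MUC13 as starts of contrasting base composition, and for the outer and inner starts of MUC16, which differed in calling. Sequences are those of RefSeq on GRCh38.p14, written 5′ to 3′ on the gene's strand, and 7 of the 9 genes had an entry. Capitals mark short motifs found on either strand: the TCF/LEF core CTTTGA, the TATA box TATAAA, the GC box GGGCGG, the AP-1 site TGANTCA, the GATA core GATAA and the STAT site TTCNNNGAA.
MUC4, chr3:195811930-195812179, - strand: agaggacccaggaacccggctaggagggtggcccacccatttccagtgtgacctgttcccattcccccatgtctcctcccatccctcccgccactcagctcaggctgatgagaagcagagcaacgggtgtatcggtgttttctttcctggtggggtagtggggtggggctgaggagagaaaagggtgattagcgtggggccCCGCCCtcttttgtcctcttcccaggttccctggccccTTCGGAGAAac
MUC17, chr7:101019831-101020080, + strand: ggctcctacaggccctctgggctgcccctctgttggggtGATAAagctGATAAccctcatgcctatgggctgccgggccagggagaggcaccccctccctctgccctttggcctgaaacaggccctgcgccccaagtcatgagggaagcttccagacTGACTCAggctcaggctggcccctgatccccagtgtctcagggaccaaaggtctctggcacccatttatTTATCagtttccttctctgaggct
MUC1, chr1:155192916-155193165, - strand: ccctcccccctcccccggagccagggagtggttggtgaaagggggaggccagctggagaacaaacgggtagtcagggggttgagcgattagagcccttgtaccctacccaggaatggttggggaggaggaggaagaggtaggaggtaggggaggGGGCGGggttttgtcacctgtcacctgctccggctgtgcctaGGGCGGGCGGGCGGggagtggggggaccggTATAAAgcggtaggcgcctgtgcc
MUC13, chr3:124934752-124935001, - strand: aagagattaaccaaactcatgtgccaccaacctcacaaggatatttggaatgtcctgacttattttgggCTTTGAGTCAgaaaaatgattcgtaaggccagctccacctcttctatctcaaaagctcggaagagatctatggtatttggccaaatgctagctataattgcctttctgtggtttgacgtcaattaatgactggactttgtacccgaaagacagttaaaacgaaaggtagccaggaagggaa
MUC16 inner start, chr19:9010410-9010659, - strand: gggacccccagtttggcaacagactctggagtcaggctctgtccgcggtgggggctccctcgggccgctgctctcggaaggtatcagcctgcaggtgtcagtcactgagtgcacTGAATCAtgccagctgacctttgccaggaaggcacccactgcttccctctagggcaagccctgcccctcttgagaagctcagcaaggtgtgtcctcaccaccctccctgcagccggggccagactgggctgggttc
MUC16 outer start, chr19:9065752-9066001, - strand: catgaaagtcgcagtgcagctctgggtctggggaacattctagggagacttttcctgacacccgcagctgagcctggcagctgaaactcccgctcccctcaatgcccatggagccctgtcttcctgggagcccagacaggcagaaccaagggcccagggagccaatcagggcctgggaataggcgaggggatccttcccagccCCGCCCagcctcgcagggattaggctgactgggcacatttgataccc

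Counted back from -1, the last base before the start, MUC1 held a TATA box at -24 and 4 GC boxes, 3 of which overlap as 1 run. Of 34943 RefSeq promoters cut to the same length, 10.8% held a TATA box and 42.5% a GC box. MUC4 held a GC box at -49 and a STAT site at -11, and 6.56% of promoters held a STAT site. MUC17 held an AP-1 site at -93 and 3 GATA cores, found in 6.59% and 20.5% of promoters. The MUC13 stretch was the only 1 of the 9 member stretches with the TCF/LEF core, the motif of the factors that beta-catenin binds, which 11.2% of promoters hold. It lay at -181 and overlapped an AP-1 site at -178. With 41.6% G and C, MUC13 stood below the median of 58.0% over all promoters, and MUC1 stood above it with 66.0%. These matches describe letters and are no evidence of binding.

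Of the 7 genes with an annotated start, 6 had a peak over it or within 1 kb in all 15 libraries, against 57.3% of 15812 protein-coding genes. A peak lay over the start in all 15 libraries at MUC1 (chromosome 1, region 155192382 to 155194222), MUC3A (chromosome 7, 100949079 to 100950012), MUC4 (chromosome 3, 195811673 to 195812273) and MUC17 (chromosome 7, 101019771 to 101020302). At MUC13 the region (chromosome 3, 124934216 to 124935249) was called in 15 libraries and its peak covered the start base in 14. MUC16, the carrier of the CA125 antigen, has 2 annotated starts: the inner one at 9010409 on chromosome 19 lay under a peak in 15 libraries, and the outer one at 9065751 in 0, the nearest region being 9572 bp away. MUC12 had no peak over its start at 100969565 in any library, and the nearest region called in 3 or more lay 2316 bp away, inside MUC3A.

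Gene ends were also read without regard to strand. A peak within 1 kb of an end was called in all 15 libraries at 7 of the 9 genes (54.3% of protein-coding genes), and in 0 libraries at MUC15 and MUC16. The end of MUC12 counted through the region over the MUC17 start (MUC17 region 1), whose near edge lies 835 bp from that end. At MUC20 the region across its lower-coordinate end (chromosome 3, 195720490 to 195721442) was called in 15 libraries. MUC15, which lies inside ANO3, held no region at all within its body. Taken over both ends, no member was called in 3 to 12 libraries, so none could be tested as a gene. Single regions could. In all, 18 regions lay within 1 kb of a member's end: 7 were constant, MUC17 region 7 (chromosome 7, 101059262 to 101059791, past the far end of the gene) was called in 14 libraries, 4 were called in 1 library and 6 in 3 to 12. Of these 6, MUC4 region 4 is described with the treatment results. MUC1 regions 7 and 9 were called in 5 and 2 of 7 libraries with Lgk974, against 4 and 2 of 8 with DMSO (two-sided exact permutation p = 0.541 and 1.0). MUC13 regions 7 and 8, past its far end, were called in 3 and 4 of 7 libraries with Lgk974, against 1 and 2 of 8 with DMSO (exact permutation p = 0.257 and 0.329). MUC17 region 6 was called in 3 of 7 with Lgk974, against 2 of 8 with DMSO (exact permutation p = 0.602). All 5 of these were weak peaks, with median ranks from 4.6 to 21.7 on the scale described next.

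The rank of a peak by deposited −log10 q within its own list, where 100 is the most significant, describes how prominent the peak at each start, or at the MUC20 end, was. Median ranks over the 15 libraries were 91.5 at the MUC1 start (83.9 to 96.5), 90.5 at the inner MUC16 start (79.4 to 98.1) and 85.6 at the MUC20 end (74.2 to 92.6). They were 84.0 at MUC13 (33.9 to 91.6) and 74.5 at MUC4 (62.7 to 82.8). MUC3A followed with 65.0 (37.6 to 90.2) and MUC17 with 43.6 (21.4 to 71.9). The order MUC1, MUC16 and MUC20 rests on ranges that overlap, whereas the MUC17 range lay wholly below those of MUC1, MUC16 and MUC20.

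**Figure D1:**
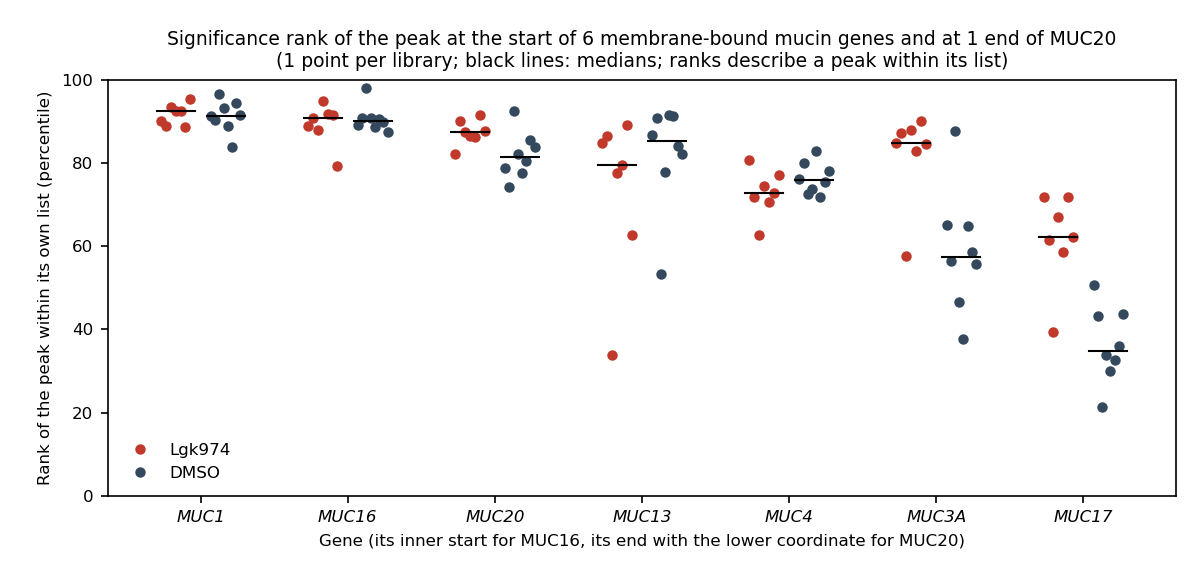
Rank of the peak at the start of 6 genes and at the lower-coordinate end of MUC20 (y axis, percentile within the library's own list) for Lgk974 (red, 7 libraries) and DMSO (dark blue, 8 libraries), with medians as black lines. MUC1, MUC16 and MUC20 lie near the top in both treatments, and MUC17 has the lowest median, 43.6. The lists differ in length, so ranks are not a measure of change between treatments.

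The neighbourhoods as a whole were called often. Of the 157 regions, 52 (33.1%) were called in all 15 libraries, against 15.9% of all 222814 regions. The count was 34 (21.7%, against 7.47% of all regions) under the stricter rule that peaks span 50% or more of the region. In settings described further on, the shares lay closer in proportion. They were 44.9% against 30.3% of all regions with lists of equal length, and 41.1% against 31.7% without 3 libraries that stood apart. A further 37 (23.6%) were called in 1 library, against 39.5% of all regions, 10 in 2 libraries, 11 in 13 or 14, and 47 in 3 to 12. The median width was 517 bp, against 395 bp over all regions. Of the 52 constant regions, 7 lay at an end of a mucin gene, 16 at an end of another gene only and 29 away from any gene end.

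**Figure D2:**
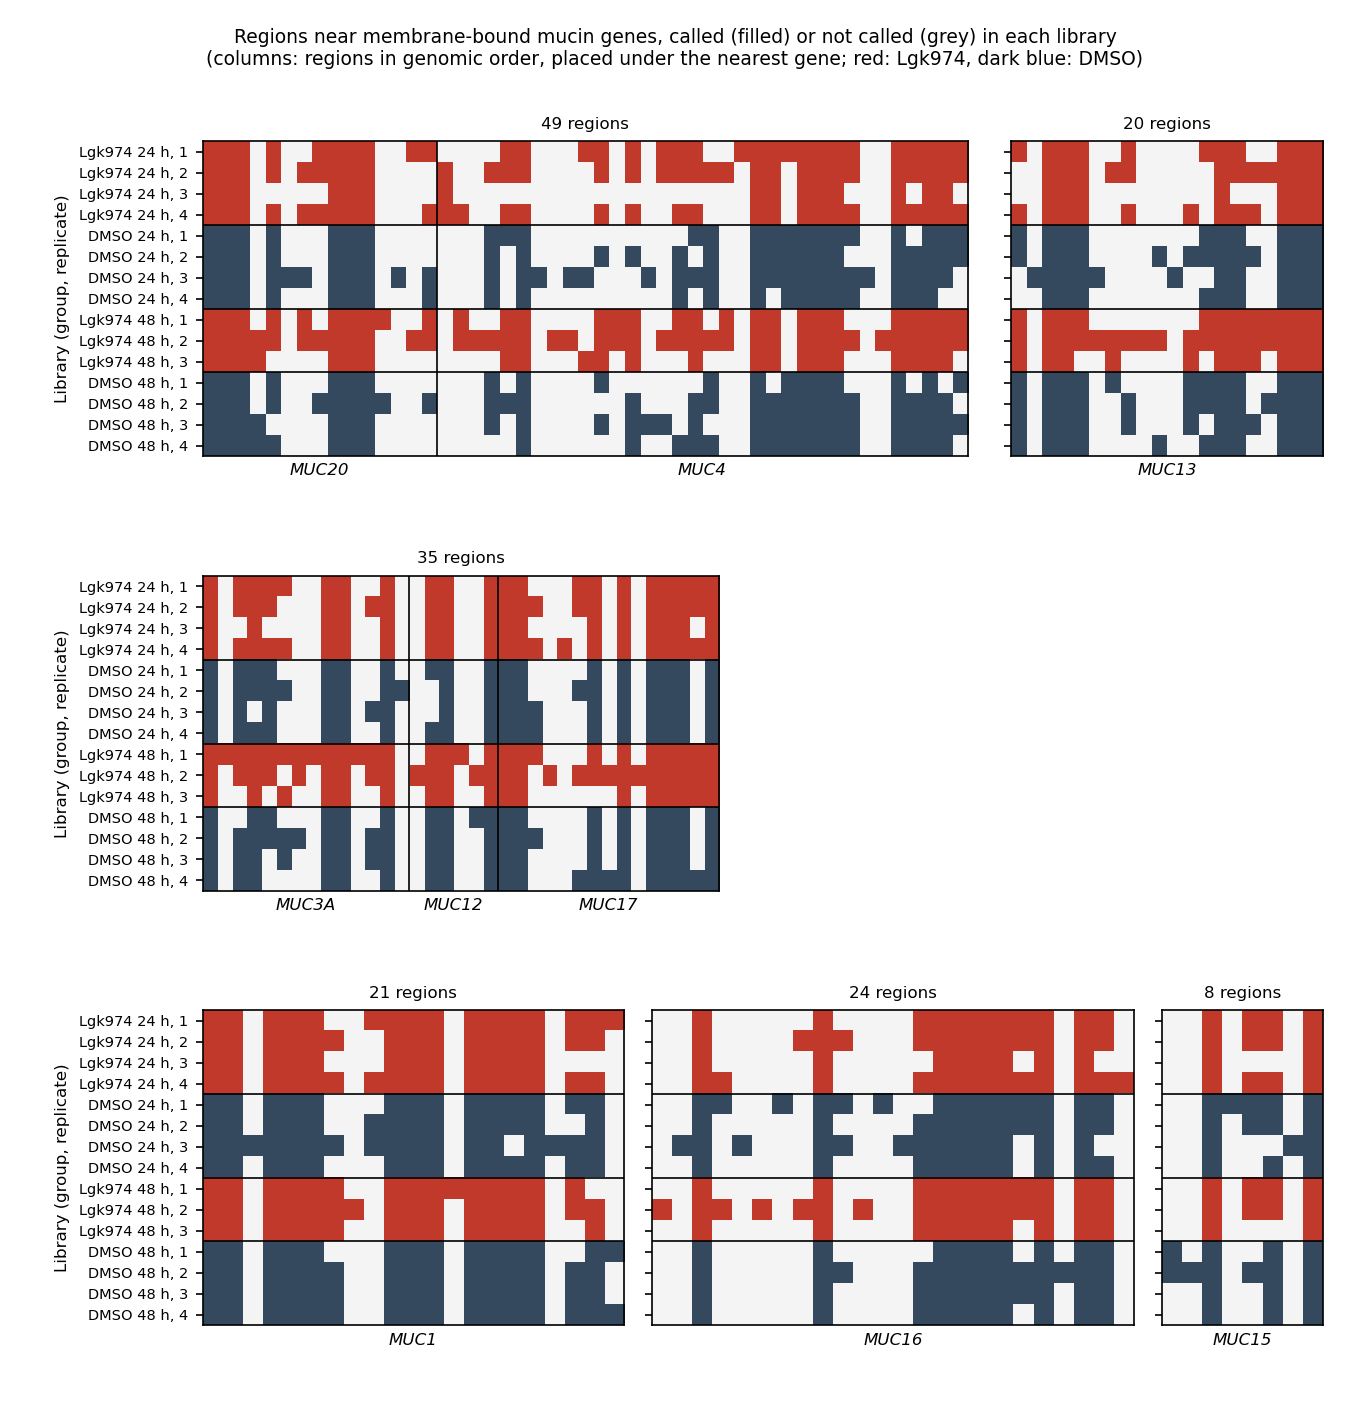
Calls at the 157 regions (columns, in genomic order under the nearest gene) in each of the 15 libraries (rows), filled red for Lgk974, dark blue for DMSO, and grey where not called. Full columns are the 52 regions called in all 15 libraries, and of the regions placed under MUC4, 16 were called in 3 to 12 libraries.

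The genes differed in how densely their bodies were open. Regions called in 3 or more libraries numbered 2.82 per 10 kb inside MUC1, the shortest of the 9 genes, and 2.3 per 10 kb inside MUC4. The MUC1 density rests on only 2 regions, 1 of them across its start. Densities were 1.59 in MUC3A, 1.36 in MUC13, 1.03 in MUC17, 0.795 in MUC20 (1 region), 0.608 in MUC12 and 0.415 in MUC16, and 0 in MUC15. The kind of region differed as well. MUC16 held 9 such regions over 216908 bp, 6 of them constant. MUC4 held 15 over 65159 bp, of which 2 were constant and 11 were called in 3 to 12 libraries. The bodies of MUC4 and MUC16, both long and both called at a start, thus differed in how variable their calls were, and no test of that difference was run.

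The most prominent constant region of each neighbourhood often lay away from the start. At MUC4 it was region 26, 8962 bp before the gene (chromosome 3, 195820891 to 195821997), with a median rank of 99.7 and a range of 97.3 to 99.9. Inside MUC4, region 21 (195804113 to 195805170) had a median rank of 94.3. The cluster on chromosome 7 had its most prominent region inside MUC12 (region 3, 100983277 to 100984123, median rank 96.0), so MUC12 was called in its body though not at its start. Near MUC13 the top region lay inside ITGB5, an integrin gene (MUC13 region 3, median rank 99.3), and near MUC16 at an end of MBD3L1 (MUC16 region 3, 98.2). Near MUC1 it lay at the ends of EFNA1 and SLC50A1 (MUC1 region 1, 97.2), and near MUC15 inside ANO3 (MUC15 region 8, 87.4). At MUC20 it was region 9, 3852 bp from the gene (89.0). In all, 33 of the 157 regions lay at ends of genes other than the 9.

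Whole-series checks bear on the treatment comparison. The lists held 53610 to 127886 peaks, and no read counts were used here, so depth is unknown. An uncalled region could still be accessible at a level that its library did not resolve. A difference in calling also cannot be told apart from a difference in the share of cells open at a site. In their mean overlap with the other libraries (Jaccard index over all regions), DMSO 24 h replicate 3 (0.376), Lgk974 48 h replicate 3 (0.478) and Lgk974 24 h replicate 3 (0.513) stood apart from the other 12 libraries, which ran from 0.583 to 0.656. Ductal markers, checked at gene ends, were called in all 15 libraries at 9 of 12 genes, with CFTR at 0 and ONECUT1 at 4 libraries among the rest, against 0 of 6 endothelial, 1 of 6 fibroblast and 4 of 6 immune genes. The share over all protein-coding genes was 54.3%. The Wnt target AXIN2 had an end called in 0 of 7 Lgk974 libraries and in 7 of 8 DMSO libraries (difference in share -0.875, two-sided exact permutation p = 0.00204, adjusted p = 0.493 over 5800 gene ends).

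Treatment was tested at the 47 regions called in 3 to 12 libraries, by permuting labels within each time (2450 assignments, two-sided exact test, smallest possible p 0.000408). Past an unadjusted 0.05 stood 2 regions with more frequent calls under Lgk974 (4.26% of 47, against 2.96% of all 60356 regions tested) and 3 with less frequent calls (6.38%, against 3.08%). After Benjamini-Hochberg adjustment over all 60356 regions, 0 of them passed, and the smallest adjusted p was 0.418. These shares amount to 2 and 3 regions, and 4 of the 5 lay inside MUC4. Within 24 h, 0 regions passed unadjusted in either direction (0.118% higher and 0.321% lower over all regions), and within 48 h, 0 were higher (0.656%) and 1 was lower (1.08%). At 3 against 4 libraries the smallest exact p is 0.0286, the value that 48 h region had.

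The largest difference belonged to MUC4 region 23 (chromosome 3, 195809992 to 195810709), inside the gene with its summit 1622 bp past the start whose upstream sequence is shown above. With Lgk974 it was called in 1 of 4 libraries at 24 h (replicate 1) and in 0 of 3 at 48 h, against 4 of 4 DMSO libraries at both times. The groups did not overlap at 48 h, a pattern shared with 1.08% of all regions tested, and at 24 h 1 Lgk974 library stood with the DMSO libraries. The difference in share was -0.875 (exact permutation p = 0.00204, adjusted p = 0.418). The peak was weak. Its rank within the list was 5.4 in the Lgk974 24 h library that had it, against 45.7, 45.1, 20.4 and 12.5 in DMSO 24 h replicates 1 to 4 and 20.6, 24.9, 9.7 and 16.6 in DMSO 48 h replicates 1 to 4. It was in none of the lists once each was cut to the same 53583 most significant peaks, and with 200 bp windows around summits it merged with its neighbour into a region called in 15 libraries. Of the regions on either side, region 24 over the start was called in all 15 libraries, and region 22 (195809462 to 195809915) in 7 of 7 Lgk974 libraries, against 6 of 8 DMSO libraries.

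Inside the same gene, regions 4 (195747752 to 195748312, within 1 kb of its far end) and 18 (195789135 to 195789621) had the same counts. Each was called in 1 of 4 Lgk974 libraries at 24 h and 1 of 3 at 48 h, against 4 of 4 DMSO libraries at 24 h and 3 of 4 at 48 h (difference -0.58, exact permutation p = 0.0469, adjusted p = 0.772). Region 5 (195751561 to 195752062), between them, went the other way. It was called in 3 of 4 and 3 of 3 Lgk974 libraries at 24 h and 48 h, against 1 of 4 DMSO libraries at either time (difference 0.625, exact permutation p = 0.0396, adjusted p = 0.741). The treatments overlapped in their calls at both times at all 3 regions, and each kept an unadjusted p under 0.05 in only 3 of the 15 fits that left out 1 library. None of the 3 kept it with the replicate number as a block (exact permutation p = 0.0625, 0.125 and 0.125 at regions 4, 5 and 18) or without the 3 libraries that stood apart (exact permutation p = 0.24, 0.08 and 0.24).

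**Figure D3:**
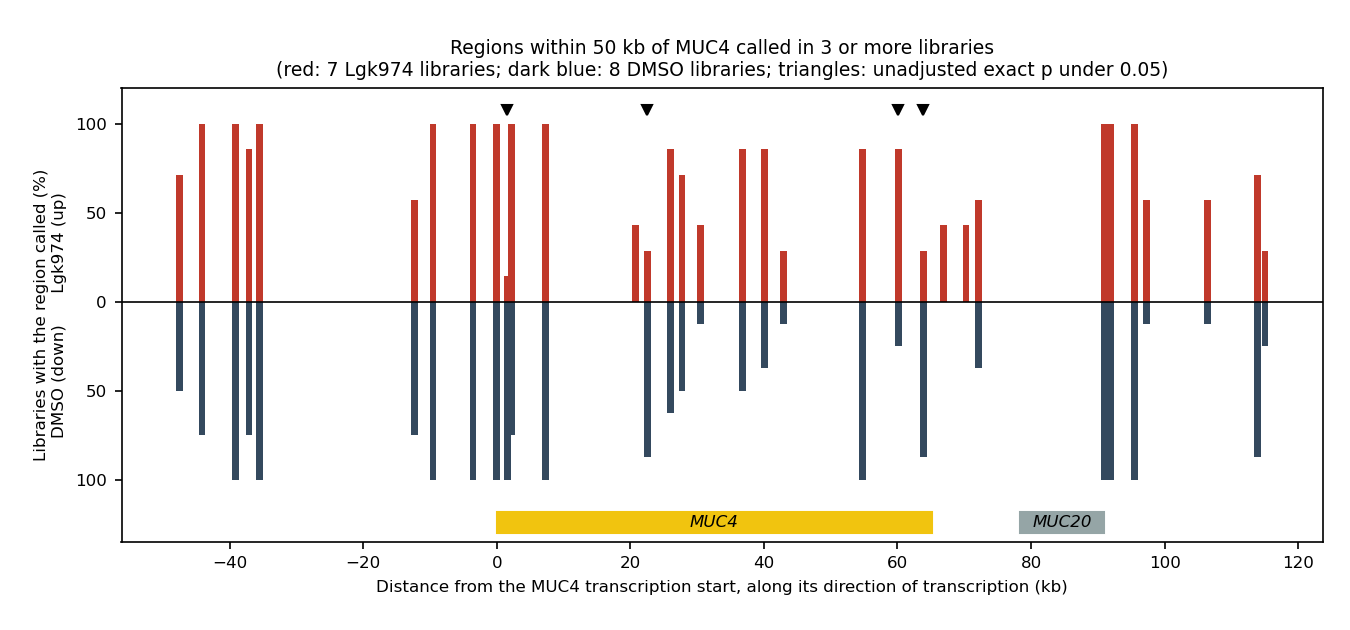
Share of libraries in which each region near MUC4 was called (bars up: 7 Lgk974 libraries, bars down: 8 DMSO libraries, in percent), against distance from the MUC4 start in kb along its direction of transcription, for regions called in 3 or more libraries. Triangles mark the 4 regions with an unadjusted exact p under 0.05; at region 23, just past the start, the bar up is 14.3% and the bar down 100.0%.

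On chromosome 7, MUC17 region 14 (101103109 to 101103505) was called more often with Lgk974. It lay 44250 bp from MUC17 and nearest to TRIM56, a ubiquitin ligase gene of innate immunity, so its place among the mucin neighbourhoods is one of distance only. With Lgk974 it was called in 3 of 4 libraries at 24 h and in 3 of 3 at 48 h, against 0 of 4 and 1 of 4 with DMSO (difference 0.75, exact permutation p = 0.0102, adjusted p = 0.543). The exception among the Lgk974 libraries was replicate 3 at 24 h, the shortest list of all, and among the DMSO libraries it was replicate 4 at 48 h. Its ranks were 47.0, 39.5 and 51.6 in Lgk974 24 h replicates 1, 2 and 4 and 35.3, 64.5 and 47.1 in the Lgk974 48 h libraries, and 21.7 in the DMSO library that had it. Of the 5 regions, it and MUC4 region 23 kept an unadjusted p under 0.05 in all 15 fits that left out 1 library (exact p from 0.00653 to 0.0286 and from 0.000816 to 0.00714).

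Over all 47 tested regions, calling leaned toward Lgk974: 31 differences were above 0 and 14 below, 66.0% above, against 45.3% of all regions tested. The median difference in share was 0.17, against -0.04 over all regions. By gene, differences were above 0 at 16 of 21 regions near MUC4, 11 of 13 near MUC20, 5 of 6 near MUC12, 3 of 5 near MUC3A, 3 of 3 near MUC17 and 3 of 4 near MUC16, many of them shared between neighbours. They were above 0 at 4 of 8 near MUC13, 1 of 4 near MUC1 and 1 of 2 near MUC15. All 3 tested regions inside MUC13 had differences below 0.

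Beyond the 5 regions described, no tested member region passed the unadjusted threshold over both times. Regions with some of the next smaller p-values lay near MUC4, MUC20 and MUC13, and those given here are not a full list. MUC4 regions 2 and 19 were called in 3 of 7 libraries with Lgk974, against 0 of 8 with DMSO (difference 0.46, exact permutation p = 0.0714). MUC20 region 7 was called in 4 of 7 libraries with Lgk974, against 1 of 8 with DMSO (difference 0.46, exact permutation p = 0.0918). MUC4 region 1 was called in 3 of 4 Lgk974 libraries at 24 h and in 0 of the other 11 libraries (exact permutation p = 0.143). Near MUC13, region 16 was called in 5 of 7 libraries with Lgk974, against 2 of 8 with DMSO (difference 0.5, exact permutation p = 0.0959). The 4 tested regions near MUC16 differed by -0.25 to 0.21 and the 5 near MUC3A by -0.17 to 0.21, with an exact p of 0.459 or more at each.

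The number of regions called per library varied within groups. Near MUC4, 28, 28, 12 and 26 regions were called in Lgk974 24 h replicates 1 to 4, against 20, 21, 29 and 18 in DMSO 24 h replicates 1 to 4. At 48 h the numbers were 26, 36 and 19 with Lgk974, against 16, 24, 23 and 21 with DMSO. The extremes at 24 h were the libraries that stood apart, replicate 3 of each group, and with them the groups overlapped at both times. Near MUC20, 16, 16, 7 and 16 regions were called with Lgk974 at 24 h and 16, 23 and 12 at 48 h, against 10, 11, 17 and 10 with DMSO at 24 h and 10, 14, 13 and 10 at 48 h. Near MUC17, 13, 14, 11 and 14 were called with Lgk974 at 24 h and 14, 18 and 11 at 48 h, against 11, 11, 11 and 12 with DMSO at 24 h and 12, 12, 11 and 14 at 48 h. Near MUC1 the range was 12 to 16 with Lgk974 and 14 to 17 with DMSO, so the groups overlapped there throughout. Near the other members the ranges also overlapped: with Lgk974 8 to 17 at MUC3A, 9 to 17 at MUC12, 7 to 18 at MUC13, 2 to 4 at MUC15 and 8 to 16 at MUC16, against 9 to 13, 10 to 14, 9 to 13, 3 to 6 and 9 to 14 with DMSO in the same order.

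**Figure D4:**
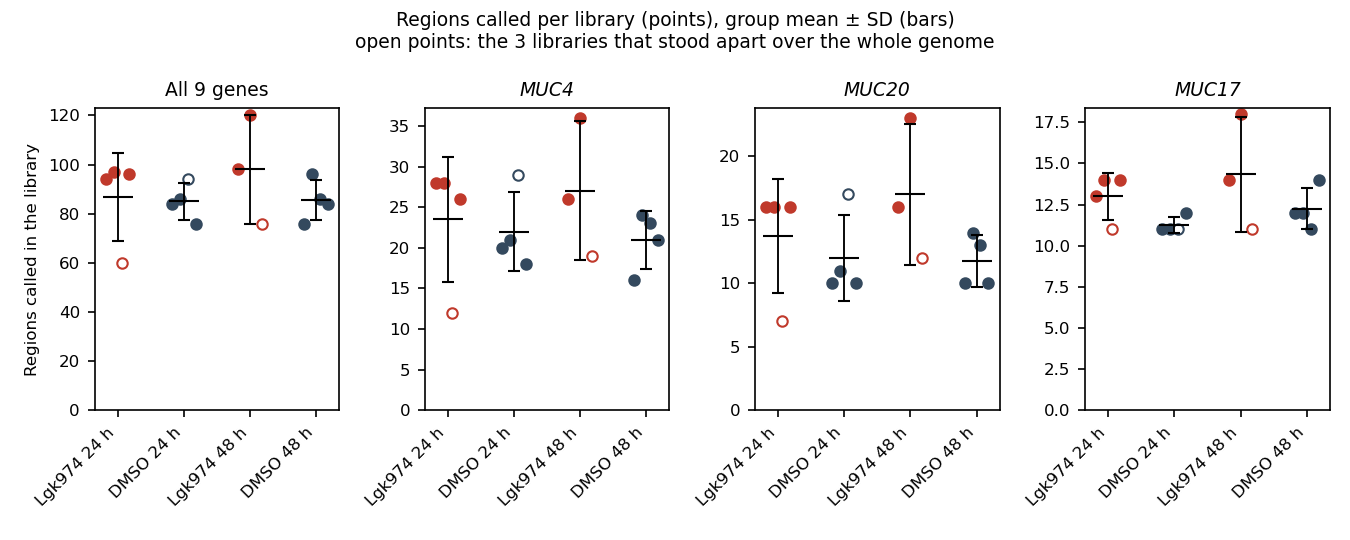
Regions called per library (points) near all 9 genes, MUC4, MUC20 and MUC17, with group means and SD as bars; open points are the 3 libraries that stood apart. Near MUC4 the filled Lgk974 points run from 26 to 36 and the filled DMSO points from 16 to 24.

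Without those 3 libraries, a choice made after seeing the data, numbers of regions are given with no test. In all, 26 to 36 regions were called near MUC4 in the 5 Lgk974 libraries, against 16 to 24 in the 7 DMSO libraries. Near MUC20 the range was 16 to 23 with Lgk974, against 10 to 14 with DMSO. Neither pair of ranges overlapped, but the lists were also longer with Lgk974 (95210 to 122834 peaks, against 76756 to 106105 with DMSO). Over all 222814 regions, 40.8% to 53.1% were called in these Lgk974 libraries, against 32.8% to 45.8% in these DMSO libraries. In this setting 77.6% of 49 tested member regions had a difference above 0, against 65.8% of all regions tested. With an unadjusted exact p below 0.05, 4 regions were more frequently called with Lgk974 (4.93% of all regions tested) and 1 was less frequently called (1.13%), and 0 passed adjustment. The 4 were MUC17 region 14, MUC20 region 7, and MUC4 regions 2 and 19, each of the last 3 in 0 of 7 DMSO libraries, and the 1 was MUC4 region 23.

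Lists of equal length remove the difference in list size, but not in how weak the peaks kept in each list are. The length was set by Lgk974 24 h replicate 3, the shortest list, which kept all its peaks on the chromosomes used. Lgk974 48 h replicate 3 (57708 peaks) kept most of its own, whereas every other list, of 76756 peaks or more, lost its weaker peaks. With the 53583 most significant peaks of every library, 89 regions remained. Of these, 40 were constant over the 15 libraries (44.9%, against 30.3% of all regions) and 20 were tested. Of the 20 tested, 6 were called more often with Lgk974 at an unadjusted exact p under 0.05 (30.0%, against 7.62% of all 26353 regions tested) and 1 less often (5.0%, against 6.83%). None passed adjustment, the smallest adjusted p being 0.247. Differences were above 0 at 16 of 20 (80.0%, against 45.9% of all regions), with a median of 0.21, against -0.04 over all regions. Regions of 1 neighbourhood are not independent of each other, and the set as such was not tested. The 3 libraries that stood apart are in this comparison, and near MUC4 the numbers of regions called overlapped, 11 to 18 with Lgk974 against 9 to 16 with DMSO.

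Among the 6 was the MUC17 start, the region whose sequence is shown above with its AP-1 site. It was among the equal lists in 7 of 7 Lgk974 libraries (4 of 4 at 24 h, 3 of 3 at 48 h), against 2 of 4 DMSO libraries at 24 h (replicates 1 and 4) and 1 of 4 at 48 h (replicate 4), with a difference of 0.625 (exact permutation p = 0.0306, adjusted p = 0.247). In Lgk974 24 h replicate 3, which kept its whole list, the start peak counted though it ranked only 39.5 in the full list. In DMSO 24 h replicate 2 it ranked 43.2 and was lost to the cut. The other Lgk974 peaks ranked from 58.5 to 71.9. In the full lists this start was called in all 15 libraries, so the difference lies in which peaks the cut kept and not in the presence of the start. Read as a gene end, this same peak made MUC12 the 1 member whose end differed unadjusted (exact permutation p = 0.0306, adjusted p = 0.457; 8.22% of all gene ends tested did so in either direction). MUC17 itself was called at 1 or the other end in all 15 equal lists, its far end (region 7) being in 5 of 7 lists with Lgk974, against 8 of 8 with DMSO.

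The others were spread over the neighbourhoods. MUC13 region 16 (chromosome 3, 124951847 to 124952629), at -17451 bp from the MUC13 start, was in 3 of 3 equal lists with Lgk974 at 48 h and in 0 of 4 at 24 h, against 0 of 8 with DMSO (exact permutation p = 0.0286). MUC12 region 2 (chromosome 7, 100973601 to 100974449), inside MUC12, was in 4 of 7 lists with Lgk974, against 0 of 8 with DMSO (exact permutation p = 0.0306), and MUC17 region 14 had the same counts and p. With all peaks, MUC12 region 2 was called in every library except DMSO 24 h replicates 2 and 3. In the short lists, replicate 3 of Lgk974 24 h and 48 h, its peak counted at ranks of 37.4 and 38.7. At ranks of 45.9 in DMSO 48 h replicate 2 and 53.2 in Lgk974 48 h replicate 2 it was lost to the cut. MUC4 region 33, at -44099 bp from the MUC4 start, was in 5 of 7 lists with Lgk974, against 1 of 8 with DMSO (exact permutation p = 0.0224). MUC3A region 4, at -32699 bp from the MUC3A start, was in 6 of 7 with Lgk974, against 2 of 8 with DMSO (exact permutation p = 0.0469). In Lgk974 24 h replicate 3, the peaks at MUC4 region 33 and MUC3A region 4 ranked only 3.8 and 7.0 in the full list. The other Lgk974 peaks that counted ranked from 38.5 to 61.2 and from 44.2 to 55.0. At MUC13 region 16, the peak of Lgk974 48 h replicate 3, a short list, counted at a rank of only 20.8. The peak of Lgk974 24 h replicate 2 there ranked 37.9 and was lost to the cut. The 1 region called less often was MUC15 region 6 (chromosome 11, 26584754 to 26585270), in 2 of 7 lists with Lgk974, against 7 of 8 with DMSO (exact permutation p = 0.0224). MUC17 region 14 was the only region past the unadjusted threshold both with all peaks and with equal lists.

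**Figure D5:**
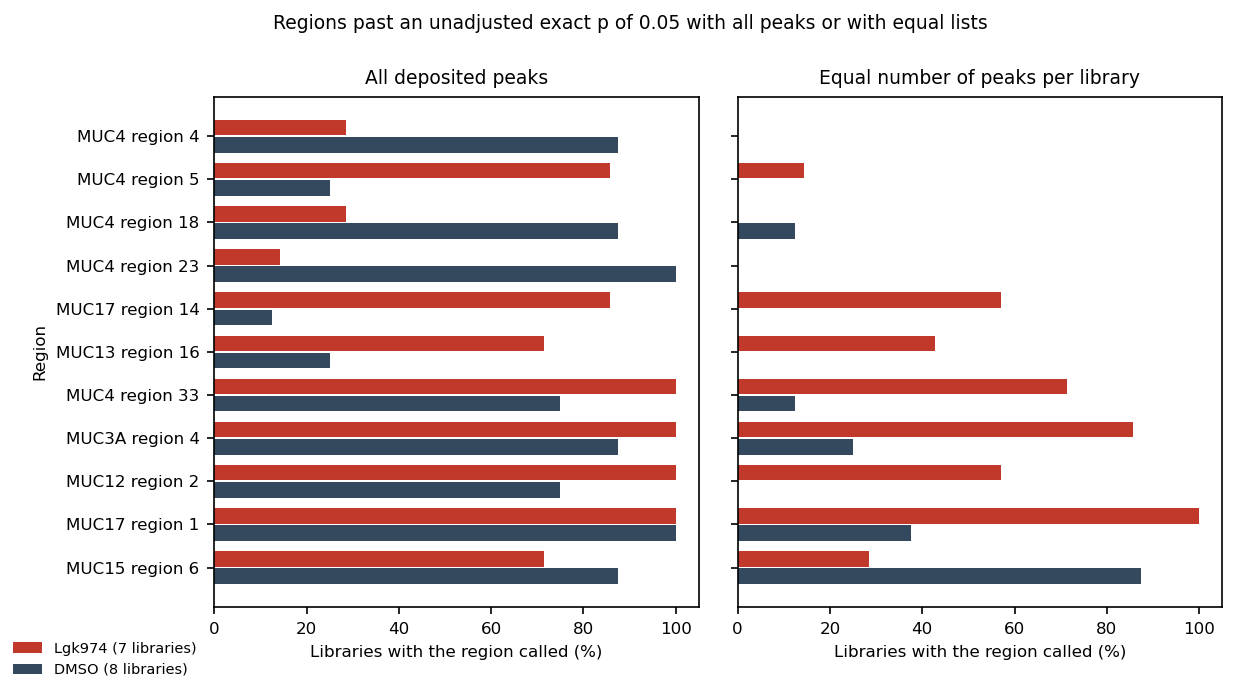
Share of libraries (x axis, percent) with each region called, with all deposited peaks (left) and with 53583 peaks per library (right), for the regions past an unadjusted exact p of 0.05 in either. The MUC17 start, MUC17 region 1, is at 100.0% with Lgk974 and with DMSO on the left, and at 100.0% with Lgk974 against 37.5% with DMSO on the right.

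Time was compared over both treatments in the same way. Of the 47 regions, 1 was called more often at 48 h than at 24 h (1.25% of all regions tested) and 0 less often (0.504%), at an unadjusted exact p under 0.05, and 0 passed adjustment. The region was MUC20 region 4 (chromosome 3, 195696670 to 195697129), called at 48 h in 2 of 3 libraries with Lgk974 and 2 of 4 with DMSO, and at 24 h in 0 of 8 (exact permutation p = 0.0306). The count of regions called more often at 48 h was 0 with the replicate block and 0 without the 3 libraries that stood apart. No member region was called in every library of 1 treatment and in none of the other at both times (0.0331% of all regions tested for Lgk974 only and 0.0315% for DMSO only).

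Other genes of mucin biology were read at their ends in the same way. Over all protein-coding genes, 54.3% had an end called in all 15 libraries. Of 8 other membrane-spanning mucin-type glycoproteins, CD164 and PARM1 had an end called in all 15 libraries, PODXL and PODXL2 in 14, and 0 could be tested. Of 7 secreted, gel-forming or soluble mucins, only MUC5B had an end called in all 15. MUC5AC, a gel-forming mucin of gastric surface epithelium, was called in 2 of 7 Lgk974 libraries, against 4 of 8 DMSO libraries (exact permutation p = 0.622), and 0 of the 3 secreted mucins tested passed the threshold. MUC6 was called in 5 of 7 with Lgk974, against 6 of 8 with DMSO, and OVGP1 in 2 of 7 with Lgk974, against 2 of 8 with DMSO. Of 18 partners, sheddases and scaffolds, 14 had an end called in all 15 libraries, among them ERBB2, the mesothelin gene MSLN and CTNNB1, which encodes the beta-catenin that the MUC1 tail binds. LGALS3, a galectin that binds mucin glycans, had an end called in 6 of 7 libraries with Lgk974, against 7 of 8 with DMSO.

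Of the 2 partners that could be tested, MSN was called in 4 of 7 Lgk974 libraries, against 1 of 8 DMSO libraries (exact permutation p = 0.112), and RDX in 5 of 7 Lgk974 libraries, against 7 of 8 DMSO libraries (exact permutation p = 0.486); both encode proteins that tie membrane proteins to actin. Of 17 transcription factors of mucin-producing epithelium, 15 had an end called in all 15 libraries, against 54.3% of protein-coding genes. GATA4 had an end called in 0 libraries, and KLF5 in 0 of 7 Lgk974 libraries against 4 of 8 DMSO libraries (exact permutation p = 0.0714). At an annotated KLF5 start, however, a peak was called in all 15 libraries, so these end counts do not describe its start. None of the genes tested in these 4 lists passed an unadjusted p of 0.05, where 1.83% of 5800 tested gene ends did so upward and 2.48% downward.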

How the data were processed

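The 15 ATAC-seq libraries of HPAF-II cells, in 4 groups, were deposited as 1 peak list each, so the authors called peaks per library. Per the submitters' processing notes, reads were on hg38 and the tools named were MACS2 (peaks), Bowtie2, Trimmomatic, SAMtools and Picard, together with DiffBind, DESeq2, ChIPseeker, HOMER and bedtools. For these tools neither versions nor settings nor order are known here, nor is any transposase shift of the reads or what the cleaning of the lists removed. All of these decide whether a weak peak is listed and how wide it is. Each deposited peak carries a score (10 times its −log10 q), a fold over background as a ratio, a −log10 p value, a −log10 q value and a summit position. These are the authors' values, used only to rank or filter peaks within a list. No depth is known, so no count model, interval or floor was used.

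Peaks of the chromosomes 1 to 22 and X were merged with pandas 2.3.3, numpy 2.4.6 and scipy 1.17.1 under Python 3.11.15; figures used matplotlib 3.10.9. In all, 1138 of 1413185 peaks on other contigs were left out, and 1 damaged line in DMSO 48 h replicate 4 was read as chromosome 1. Genes and promoter sequences came from RefSeq on GRCh38.p14, the assembly of hg38. Regions called in 3 to 12 libraries were tested over the whole genome with two-sided exact permutation tests on called or not called (treatment within time; time within treatment) and Benjamini-Hochberg adjustment at 0.05; the code was tested on simulated calls. A gene end was a peak within 1 kb of either end. The members and gene lists were chosen with earlier results of these data known. Regions were named by rule: all at ends of the 9 genes, all past an unadjusted p of 0.05 over both times (up to 10 a direction), those separating the treatments at 1 time, and the top-ranked constant region of each gene; of each other list, up to 5 genes by difference, with AXIN2, CTNNB1, ERBB2, LGALS3 and MSLN always. The regions named from equal lists and without 3 libraries were chosen after their values were seen. Alternatives were equal lists, −log10 q of at least 5, summit windows, 50% coverage, 10 kb neighbourhoods, no filter on calls, ends within 3 kb or at starts only, a replicate block, each library left out and, added after seeing the data, 3 libraries left out.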

Additional observations from a re-analysis of the deposited data

Results flagged for a closer look

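In groups of 4 libraries, the number of regions called was examined for a library whose gap to its nearest neighbour, as a share of the group's range, was above Dixon's critical value. Of 30 groups examined, 8 were flagged. The counts are small whole numbers, and 3 equal values beside 1 other are always flagged, however small the gap. The groups also share regions, so the number flagged cannot be set against a chance rate. In Lgk974 24 h replicate 3, the shortest list, 60 regions were called near all 9 genes, against 94 to 97 in the other 3 libraries of its group. Near MUC4 it had 12 (others 26 to 28), near MUC20 7 (others 16), near MUC3A 8 (others 11) and near MUC15 2 (others 4). In DMSO 24 h replicate 3, the longest list, 17 regions were called near MUC1 (others 14) and 17 near MUC20 (others 10 to 11). In DMSO 24 h replicate 4, 12 regions were called near MUC17, against 11 in each of the others. Both replicates 3 are among the libraries that stood apart over the whole genome.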

How the results depend on the processing

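With all peaks, 2 mucin regions were called more and 3 less often with Lgk974 over both times at an unadjusted exact p under 0.05. These counts were 6 and 1 of 20 tested with equal lists (7.62% and 6.83% of all regions tested). They were 4 and 1 of 40 with a −log10 q of at least 5 (3.19% and 3.02% of all). Without the 3 libraries that stood apart they were 4 and 1 of 49 (4.93% and 1.13% of all). Within 10 kb, 1 of 30 was higher (2.96% of all). At 48 h, 2 were higher with equal lists (2.74% of all regions tested) and with the stricter q (0.622%). With 50% coverage 1 was higher (0.535%), against 0 with all peaks (0.656%). The 1 lower region at 48 h became 0 with the stricter q, summit windows or 50% coverage. Without the 3 libraries the smallest possible exact p at 48 h was 0.0667, so no region could pass there. At 24 h, 1 was lower with the stricter q (0.309% of all regions tested) and with 50% coverage (0.254%), against 0 (0.321%). Over time, the 1 region higher at 48 h became 0 within 10 kb and without the 3 libraries. Equal lists gave 1 lower (1.79% of all regions tested). Equal lists also gave 1 gene whose end differed, MUC12, at the MUC17 start. The cause of the moves was not tested. Only the 5 regions past the threshold over both times were followed singly. MUC17 region 14 kept its side of the threshold in every setting run (differences 0.58 to 0.875). MUC4 region 23 had a difference of 0 with summit windows (exact p = 1.0) and -0.625 with 50% coverage (exact p = 0.0306). MUC4 regions 4 and 23 were in none of the equal lists. MUC4 region 4 also lost its call with 50% coverage (-0.21, exact p = 0.598) and the stricter q (-0.46, exact p = 0.14). Region 5 lost it with equal lists (0.17, exact p = 0.429) and 50% coverage (0.42, exact p = 0.133). Region 18 lost it with equal lists (-0.125, exact p = 1.0) and the stricter q (-0.5, exact p = 0.0714), and had -0.875 with 50% coverage (exact p = 0.00204). Regions called in all libraries numbered 34 with 50% coverage (21.7% of 157) and 26 within 10 kb (28.0% of 93), against 52 (33.1% of 157).

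Leaving out 1 library at a time gave 1 to 3 regions called more often and 1 to 3 less often over both times. It gave 0 to 3 and 0 to 2 at 24 h, 0 to 0 and 0 to 1 at 48 h, 0 to 2 higher and 0 lower over time, 0 to 1 separated at both times (MUC4 region 23, without Lgk974 24 h replicate 1) and 0 gene ends. The lower count over both times was 1 without any library other than Lgk974 24 h replicate 2, Lgk974 48 h replicate 2 and DMSO 48 h replicates 3 and 4. The higher count was 1 without replicate 2 or 4 of Lgk974 24 h, 1 or 2 of Lgk974 48 h, 3 or 4 of DMSO 24 h, or 1, 3 or 4 of DMSO 48 h. At 24 h, leaving out Lgk974 replicate 3 gave 3 higher (1.31% of all regions tested). Without replicate 1, 1 was higher and 1 lower (0.133% and 0.471% of all). Without replicate 2, 2 were lower (0.505% of all). The time count was 2 without DMSO 48 h replicate 1, 1 without DMSO 24 h replicate 3, Lgk974 48 h replicates 1 and 3 or DMSO 48 h replicate 2, and 0 without any other. At 48 h no fit without a library of that time could reach a p of 0.05.

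Correlations of deviations were above 0.1 in all 4 same-numbered pairs at 24 h (0.102 to 0.142) and in 1 of 3 at 48 h (-0.032 to 0.146), so the numbers were not taken to pair the libraries over both times; 4 of 7 Lgk974 libraries matched their own number best. With the replicate block, 1 region was higher and 1 lower over both times (0.232% and 0.33% of all regions tested). These were MUC17 region 14 and MUC4 region 23, each with an exact permutation p of 0.0312. MUC4 regions 4, 5 and 18 had an exact permutation p of 0.0625, 0.125 and 0.125. Counts at 48 h and over time were 0, and within 1 time the block cannot reach a p of 0.05. Unknown depth limits all comparisons: calls depend on each library's threshold, and MUC4 region 23 is a weak peak.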
